A study of Mus musculus with 2 samples.

Results

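The 9 genes described here encode proteins that red blood cells or their precursors carry on the surface, Rhd, Icam4, Ermap, Ackr1, Slc4a1, Gypc, Cd24a, Cd44 and Cd47. They were chosen by name, out of 32285 genes counted, and followed in single-cell RNA-seq of bone and marrow cells. The cells came from the femurs and tibiae of 3 male INK-ATTAC mice, 24 months old, which carry a transgene driven by the p16 promoter that was not activated here, and all cells were pooled before loading, so no value can be given per mouse. Red cells had been lysed, cells bearing CD5, CD45R, CD11b, Gr-1, 7-4 or Ter-119 had been removed with magnetic beads, and live CD45- cells had been sorted. The pool was profiled with a 10x Chromium 3′ assay and deposited as 2 count matrices, labelled replicates 1 and 2, with 116827845 and 120556381 unique molecular identifiers (UMIs, each marking 1 counted RNA molecule). Of 11056 barcodes 10928 occurred in both matrices, so the matrices were taken to hold the same cells and were summed. There is thus 1 biological sample and no replicate. Intervals in brackets are exact 95% intervals that cover counting error only, and no difference could be tested.

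Red cell precursors fill with hemoglobin as they mature, while the plasma membrane is rebuilt from that of a dividing progenitor to that of a red cell. Band 3, the anion exchanger encoded by Slc4a1, and the Rh proteins form complexes that tie the membrane to the spectrin skeleton. Adhesion molecules such as CD44 are lost from the surface during this maturation, which makes CD44 a common stage marker in mouse marrow. Most of these proteins are known from human blood groups, Rhd as a Rh protein, Icam4 as the LW antigen, Ermap as Scianna, Ackr1 as the Duffy chemokine receptor, Gypc as Gerbich and Cd44 as Indian. CD24, the heat stable antigen, is a small lipid-anchored glycoprotein of red cell precursors, B cell precursors and other cells, and CD47 is the ubiquitous protein that keeps macrophages from engulfing a cell.

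In the GENCODE M21 annotation of GRCm38, Cd24a (ENSMUSG00000047139) spans 43578284 to 43584265 on the plus strand of chromosome 10. Rhd (ENSMUSG00000028825) lies at 134864536 to 134896172 on the plus strand of chromosome 4, and Ermap (ENSMUSG00000028644) at 119175457 to 119190011 on its minus strand. Slc4a1 (ENSMUSG00000006574) lies at 102348824 to 102366203 on the minus strand of chromosome 11, Cd44 (ENSMUSG00000005087) at 102811141 to 102901665 on the minus strand of chromosome 2, and Cd47 (ENSMUSG00000055447) at 49800533 to 49915010 on the plus strand of chromosome 16. Ackr1 (ENSMUSG00000037872), at 173331886 to 173333750 on the minus strand of chromosome 1, shares exon sequence with Cadm3 on the same strand. Icam4 (ENSMUSG00000001014), at 21029373 to 21030595 on the plus strand of chromosome 9, overlaps exons of Gm47079 on the other strand. Counts of Ackr1 may therefore be less certain than those of the other members, and so may those of Icam4 if reads were assigned without regard to strand. Neither was tested.

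Promoter sequences for 6 of the 9 members were in the RefSeq promoter table used (GRCm38.p6), those of Ermap, Rhd, Icam4, Cd44, Ackr1 and Cd47. The 250 bases before the start were searched on both strands for AGATAA and its forms with T as the first or G as the last letter, which are sites of the erythroid factor GATA1, and for CCNCNCCC, a site of the KLF family. Ermap, Rhd, Icam4 and Cd44 held a GATA motif, as did 26.5% of all 32851 promoters of this table, and Icam4 and Cd44 held a KLF motif, as did 45.9%. Neither motif was found in the windows of Ackr1 and Cd47. The 4 windows with a GATA motif are shown 5′ to 3′ on the gene's strand, with both motifs in capitals, since 3 belong to genes that were over 10 times higher in erythroid-like than in LEPR stromal-like cells and the other to Cd44, which was highest in fibroblast-like cells. Ermap covers chr4:119189996-119190245 (minus strand), Rhd chr4:134864286-134864535 (plus), Icam4 chr9:21029182-21029402 (plus, shortened to 221 bases) and Cd44 chr2:102901666-102901915 (minus).
Ermap: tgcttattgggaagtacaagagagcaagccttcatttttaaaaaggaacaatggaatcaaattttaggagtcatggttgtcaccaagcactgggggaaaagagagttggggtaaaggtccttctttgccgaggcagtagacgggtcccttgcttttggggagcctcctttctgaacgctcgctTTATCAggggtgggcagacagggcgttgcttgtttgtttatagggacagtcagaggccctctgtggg
Rhd: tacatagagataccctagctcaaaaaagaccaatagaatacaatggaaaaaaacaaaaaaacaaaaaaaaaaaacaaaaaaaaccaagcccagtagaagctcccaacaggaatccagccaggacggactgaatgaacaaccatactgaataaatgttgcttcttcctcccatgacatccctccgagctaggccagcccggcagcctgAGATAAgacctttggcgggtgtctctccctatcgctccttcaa
Icam4: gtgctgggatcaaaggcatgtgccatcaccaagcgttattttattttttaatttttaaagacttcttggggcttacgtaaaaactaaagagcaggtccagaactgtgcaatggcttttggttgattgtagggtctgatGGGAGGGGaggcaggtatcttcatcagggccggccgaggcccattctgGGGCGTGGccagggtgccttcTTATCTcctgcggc
Cd44: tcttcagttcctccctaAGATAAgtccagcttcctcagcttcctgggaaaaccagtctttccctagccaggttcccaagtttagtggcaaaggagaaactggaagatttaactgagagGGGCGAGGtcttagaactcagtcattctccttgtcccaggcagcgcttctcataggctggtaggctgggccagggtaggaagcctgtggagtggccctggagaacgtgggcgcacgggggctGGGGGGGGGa
The GATA motif began 67 bases before the start of transcription in Ermap, 43 bases before it in Rhd and in Icam4, and 233 bases before it in Cd44. The KLF motifs of Icam4 began 112 and 64 bases before the start, and those of Cd44 132, 10 and 9 bases before it, the last pair overlapping. GENCODE places the starts of Icam4 and Ermap earlier than RefSeq does, so the last bases printed for both lie inside the annotated gene, and the GATA motif of Icam4 is among them. A match of these letters is a description of the window and not a binding site.

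Of 9573 cells kept (at least 200 genes and at most 20% mitochondrial UMIs), 6363 lay in 9 erythroid-like clusters, 1118 were LEPR stromal-like, 109 fibroblast-like, 132 megakaryocyte-like and 51 endothelial-like. Defining markers followed the names, with Lepr at 1635 CPM (UMIs of the gene over all UMIs of the group, times 1e+06) in LEPR stromal-like cells, Dcn at 13404 CPM in fibroblast-like, Pf4 at 25147 CPM in megakaryocyte-like and Cdh5 at 899 CPM in endothelial-like cells. Erythroid-like cells were divided by the share of their UMIs that came from globin genes, giving 1872 cells under 0.5%, 789 at 0.5 to 1%, 1623 at 1 to 2.5%, 1502 at 2.5 to 6% and 577 at 6% or more. Median depth differed between these groups, at 10721, 11144, 41759, 42146.5 and 33863 UMIs per cell in that order, and was 6521.5 UMIs in LEPR stromal-like cells. Levels in CPM do not depend directly on depth, while shares of cells with a UMI do, so shares are also given with every cell thinned to 2000 UMIs. Of the erythroid-like cells, 2382 lay in 3 clusters led by Lars2, Gm26917 or Hspa1b, and 979 of these were among the 1872 cells under 0.5% globin. Only 55 were among the 577 cells at 6% or more. Under 0.5% globin their median depth was 5754 UMIs per cell, against 44498 UMIs in the other clusters. In 1 of these clusters mitochondrial genes were also among the leading genes. Their share thus differed between the globin groups, and the part of cell quality in the ratios was not tested. Results that these 3 clusters moved by more than 1.5 times are given without them as well. A further 4 clusters stayed unnamed, among them 1 of 824 cells that carried all 14 LEPR stromal markers and 1 of 250 cells with a median globin share of 11.8%.

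Of the 9 members, 8 were higher in erythroid-like cells at 6% globin or more than in those under 0.5%, and Cd44 was lower. At least 2-fold higher were 6 members and at least 2-fold lower was 1, where 3.72% of 9473 genes tested were at least 2-fold higher and 27.6% at least 2-fold lower. With each cell weighted equally, and in cells thinned to 2000 UMIs, Cd47 passed 2-fold too, at log2 ratios of 1.11 and 1.15, which made it 7 members. The median log2 ratio was 1.36 over the members and -0.51 over all genes tested. All 9 members passed the minimum of 50 UMIs. The plot of levels by group shows these patterns for each gene.

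**Figure D1:**
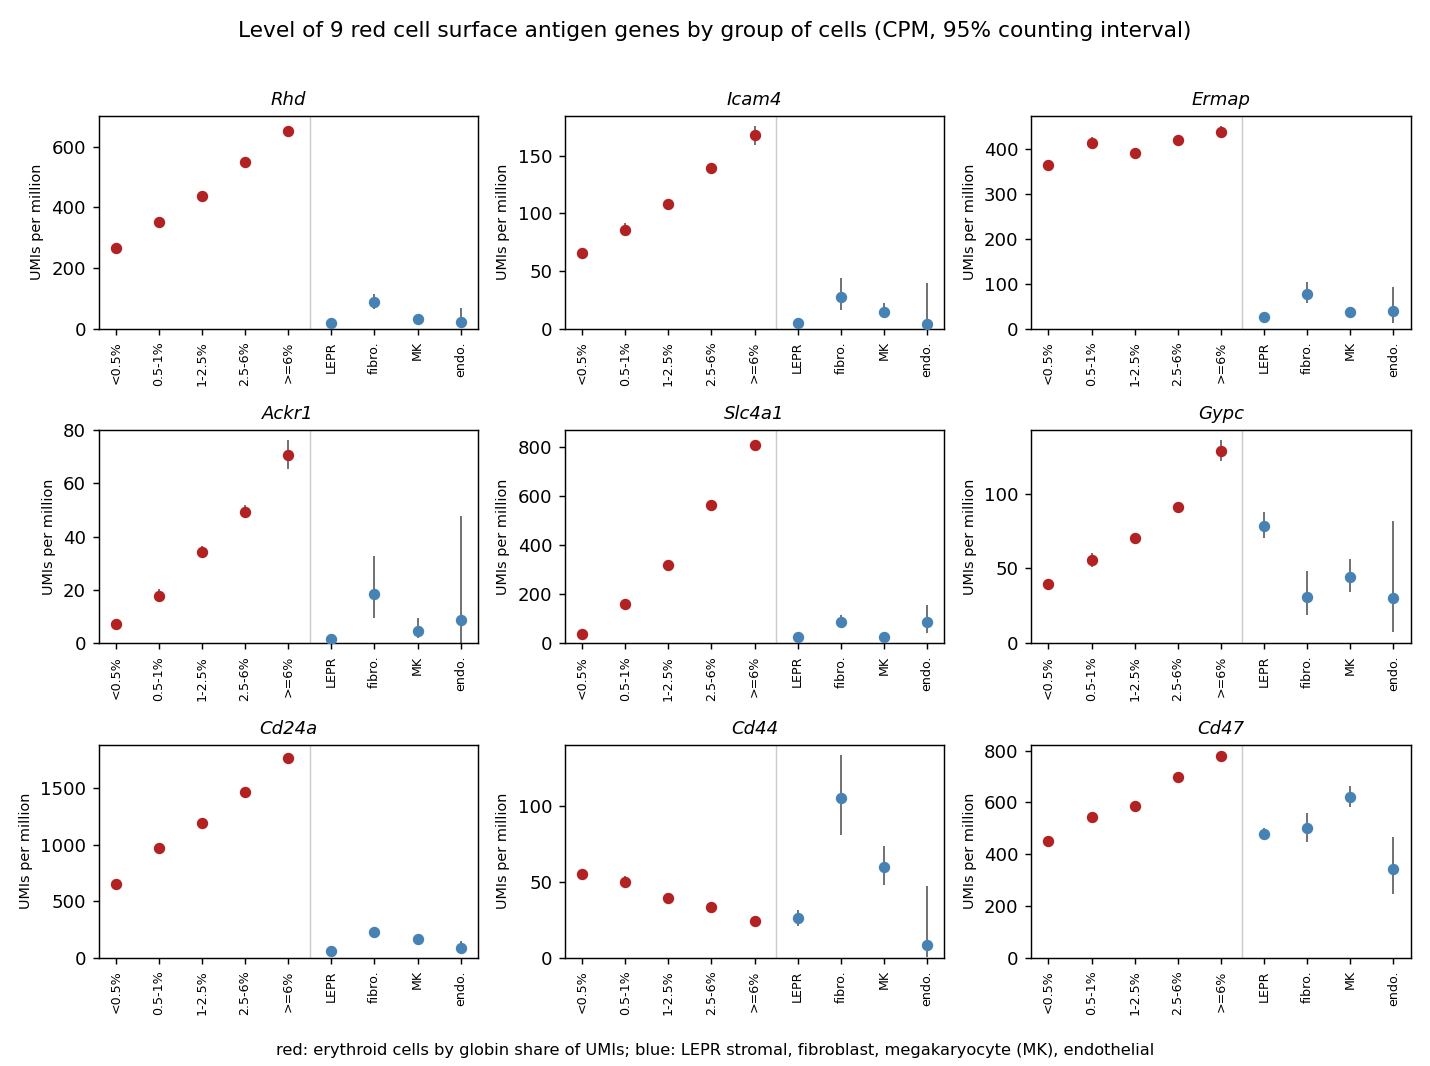
Level of each gene in CPM (vertical axis, linear, from 0) in erythroid-like cells by globin share (red points) and in LEPR stromal-like, fibroblast-like, megakaryocyte-like and endothelial-like cells (blue points), with exact 95% counting intervals as bars. Cd24a rose from 649 to 1770 CPM along the globin share, Cd44 fell from 55.4 to 24.1 CPM and was highest in fibroblast-like cells, at 105 CPM.

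Of the members tied to the band 3 complex, Slc4a1 rose by the largest fold of the 9 and Rhd was sixth of the 8 that rose, in CPM of summed UMIs. With each cell weighted equally Rhd ranked above Cd24a. Slc4a1 stood at 35.8 CPM (33.4 to 38.3) under 0.5% globin, then at 160, 320 and 562 CPM, and at 810 CPM (792 to 829) at 6% or more. The matrices, taken to hold the same cells, gave 36.7 and 34.9 CPM in the lowest group and 804 and 817 CPM in the highest. The rise of Slc4a1 was a log2 ratio of 4.50 (4.40 to 4.60), or 22.6-fold. Without the 3 clusters led by Lars2, Gm26917 or Hspa1b, Slc4a1 fell to 22.6 CPM in the lowest group and the log2 ratio was 5.17. With each cell weighted equally, by averaging the CPM of single cells, the ratio was 3.62, and thinned to 2000 UMIs it was 3.55. In thinned cells, 10.6% of those under 0.5% globin and 73.8% of those at 6% or more had an Slc4a1 UMI, against 3.58% of LEPR stromal-like cells. Unthinned, the shares were 33.7%, 98.3% and 11.1%.

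Rhd rose more evenly, from 268 CPM (261 to 274) through 351, 439 and 549 to 653 CPM (637 to 669), so that the log2 ratio was 1.29 (1.24 to 1.34). The matrices differed by little, at 267 and 268 CPM in the lowest and 655 and 651 CPM in the highest group. In the lowest group Rhd was at 99.1 CPM in the cells of the 3 clusters led by Lars2, Gm26917 or Hspa1b and at 295 CPM in the others. Weighting each cell equally, Rhd was at 168 CPM there and its log2 ratio was 1.87.

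Among the adhesion and immunoglobulin-like proteins, Icam4 climbed from 65.3 CPM (62.1 to 68.7) through 85.8, 108 and 139 to 168 CPM (160 to 176), with the log2 ratio at 1.36 (1.26 to 1.46). The same split was seen as for Rhd, with Icam4 at 15.3 CPM in the lowest group in the cells of those 3 clusters and at 73.5 CPM in the others. With each cell weighted equally its ratio was 2.01. Ermap, a transmembrane protein of the butyrophilin family, was nearly level, at 365 CPM (357 to 373) under 0.5% globin, then 414, 392 and 421 CPM, and 439 CPM (426 to 453) at 6% or more. The highest group was above the lowest by a log2 ratio of 0.27 (0.21 to 0.32).

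Ackr1, which binds chemokines without signalling through them, was at 7.11 CPM (6.08 to 8.26) in the lowest group, at 17.9, 34.3 and 49.4 CPM in the next 3, and at 70.7 CPM (65.5 to 76.3) in the highest. The matrices gave 6.99 and 7.23 CPM at the low end and 73.2 and 68.3 CPM at the high end, 9.95-fold apart, a log2 ratio of 3.31 (3.07 to 3.56). Gypc, the glycophorin that joins the membrane to protein 4.1, rose from 39.8 CPM (37.3 to 42.4) through 55.5, 70.7 and 91.0 to 129 CPM (122 to 136), a log2 ratio of 1.69 (1.57 to 1.82).

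Cd24a had a UMI in 93.7% of erythroid-like cells. It stood at 649 CPM (639 to 660) under 0.5% globin, with 648 CPM in matrix 1 and 651 CPM in matrix 2. The next 3 groups were at 967, 1193 and 1463 CPM, and the group at 6% or more at 1770 CPM (1743 to 1796), with 1769 CPM in matrix 1 and 1770 CPM in matrix 2. Each step up exceeded the counting interval. The log2 ratio of the highest over the lowest group was 1.45 (1.42 to 1.48), or 2.73-fold. This rise was not seen throughout. In the cells of the 3 clusters led by Lars2, Gm26917 or Hspa1b, Cd24a stood at 631, 897, 873, 845 and 878 CPM along the globin groups, 1.39-fold higher at the end (log2 ratio 0.48, 0.27 to 0.68), with 55 cells in the highest group. In the other clusters it went from 652 to 1794 CPM, at a log2 ratio of 1.46 (1.43 to 1.49). Within those 3 clusters Ermap was lower in the highest group, at a log2 ratio of -0.47 (-0.81 to -0.14), Slc4a1 and Icam4 were higher, at 2.56 (2.29 to 2.82) and 2.68 (1.93 to 3.40), and the interval of Ackr1 crossed 0, at 1.32 (-0.23 to 2.59). The other members kept their direction there. In thinned cells the share with a Cd24a UMI was 58.4% in the lowest and 92.3% in the highest group, against 10.1% of LEPR stromal-like cells (86.0%, 99.1% and 26.9% unthinned).

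The broadly expressed antigens went separate ways. Cd47 rose from 451 CPM (443 to 460) to 778 CPM (761 to 796), a log2 ratio of 0.79 (0.74 to 0.83). Cd44, the hyaluronan receptor, fell at every step, from 55.4 CPM (52.5 to 58.5) through 49.8, 39.7 and 33.4 to 24.1 CPM (21.1 to 27.4), with 56.4 and 54.5 CPM by matrix at the low end and 24.5 and 23.6 CPM at the high end. Its log2 ratio was -1.20 (-1.41 to -1.0). In thinned cells a Cd44 UMI was found in 8.63% of the lowest and 4.19% of the highest group.

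The order of appearance was read as the first group in which a gene reached at least 50% of its own highest erythroid level, so that levels of different genes were not set against each other. Ermap, Cd47 and Cd44 were there in the group under 0.5% globin, Cd24a, Rhd and Icam4 at 0.5 to 1%, Gypc at 1 to 2.5%, and Ackr1 and Slc4a1 at 2.5 to 6%. Finer spacing, with erythroid-like cells in 20 bins of 318 or 319 cells ordered by globin share, kept this order. That level was reached in bin 1 by Ermap, Cd44 and Cd47, in bin 7 by Cd24a (median globin share 0.606%), in bin 8 by Rhd, bin 9 by Icam4, bin 11 by Gypc, bin 12 by Ackr1 and bin 15 by Slc4a1 (2.95%). From the first to the last bin Slc4a1 went from 7.37 to 869 CPM and rose at 19 of 19 steps, Ackr1 from 2.06 to 74.1 CPM at 18 of 19 steps, and Cd24a from 448 to 1832 CPM at 18 of 19 steps. Cd44 peaked in bin 3, at 61.5 CPM, and ended at 17.5 CPM. The place of Cd24a ahead of Rhd and Icam4 rests on 1 and 2 bins. With globin UMIs left out of the totals, Rhd and Icam4 moved to the group at 1 to 2.5%, and with each cell weighted equally they did so too and Cd47 moved to 0.5 to 1%. In thinned cells Rhd and Ackr1 were at 1 to 2.5%, Cd47 at 0.5 to 1% and Icam4 at 2.5 to 6%. The order differed in the cells of the 3 clusters led by Lars2, Gm26917 or Hspa1b, with 55 cells in the highest group. Slc4a1 was at 116, 420, 594, 701 and 684 CPM there. It reached the level at 0.5 to 1%, as did Ackr1 and Gypc, while Cd24a was there under 0.5% and Icam4 at 2.5 to 6%. In the other clusters each member reached it in the same group as in all erythroid-like cells.

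**Figure D2:**
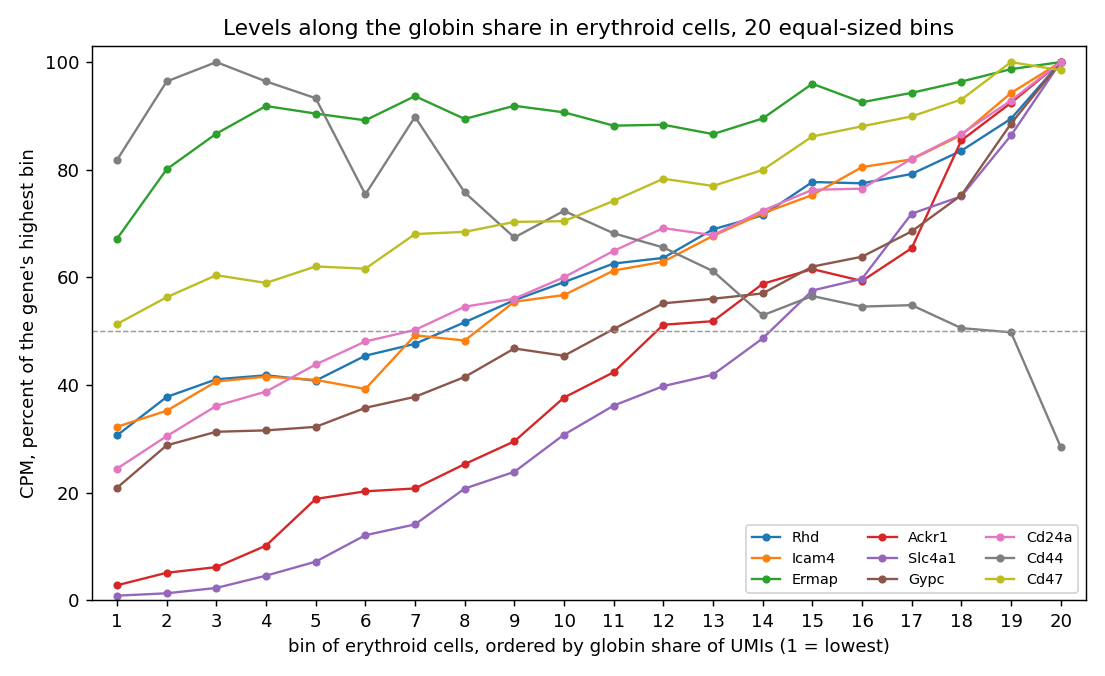
Level of each gene as a percent of its own highest bin (vertical axis) in 20 equal-sized bins of erythroid-like cells ordered by globin share (horizontal axis, 1 = lowest), with the dashed line at 50%. Ermap, Cd47 and Cd44 lay above the line in bin 1, Cd24a crossed it in bin 7 and Slc4a1 in bin 15, and Cd44 dropped below it in bin 19.

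Over these 20 bins the log2 levels of Cd24a correlated with those of Ackr1 at Pearson r = 0.993, of Slc4a1 at 0.988, of Rhd at 0.981 and of Cd44 at -0.847, as a description of bins that share library, depth and the ordering itself. Among 2513 genes of at least 50 CPM, Dek was among the 3 most like Cd24a, at r = 0.998. Rhd was most like Prdx2, Hebp1 and Urod, Icam4 most like Prdx2, Blvrb and Plaat3, and Cd47 most like Urod, Prdx2 and Blvrb, at r from 0.988 to 0.997. Gypc was followed most closely by Ctse, Urod and Gid8, Ackr1 by Dek, Trim10 and Lig1, and Slc4a1 by Cenph, Ccnd3 and Josd2, at r from 0.990 to 0.994. Ermap was closest to Hist1h3a, Kel and Clcn3 (r = 0.969, 0.961 and 0.960), and Cd44 to Nfia, Eif5b and Nolc1 (r = 0.974, 0.971 and 0.969).

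The members accumulated in single cells. Thinned to 2000 UMIs, erythroid-like cells under 0.5% globin had a UMI of a median of 2 members, those at 6% or more of 4, and LEPR stromal-like cells of 1. At least 4 members were seen in 13.3%, 31.6%, 43.3%, 60.3% and 72.9% of cells in the successive globin groups, against 0.179% of LEPR stromal-like cells. Cd24a and Slc4a1 were found together in 69.1% of the thinned cells at 6% or more, in 396 cells where 390.5 would have both if the genes were detected independently. With both genes found in most cells of that group, the count had little room to differ from that number, so nothing is concluded from it.

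Other surface proteins of red cells, taken as a list of 25, were compared in the same way. Of the 22 tested, 7 were at least 2-fold higher at 6% globin or more, 1 (Kit, the stem cell factor receptor) was at least 2-fold lower and 14 lay between, with a median log2 ratio of 0.65, beside 3.72% and 27.6% of all genes tested and their median of -0.51. Among those with the highest level, Tfrc, the transferrin receptor, was at a log2 ratio of 0.61, Bsg (basigin) at 0.76, Cldn13 at 0.96 and Smim1 (the Vel antigen) at 0.39. Those at least 2-fold higher included Cd36, Cd59a, Art4, Abcg2, Kel and Aqp1, at 2.56, 2.33, 1.73, 1.29, 1.05 and 1.01. Of 14 genes of the membrane skeleton, 3 were at least 2-fold higher (Tmod1 at 3.33, Epb42 at 2.04 and Dmtn at 1.95) and none lower, with a median of 0.60. The abundant Actb, Sptb, Ank1 and Add2 lay between -0.04 and 0.73.

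Lineage depletion acts on proteins, and the RNA of some of its targets and of the sort was compared with globin share. Ptprc, which encodes CD45 and CD45R, fell along the globin share, from 5.13 CPM (4.26 to 6.12) to 0.208 CPM (0.0252 to 0.753), against 53.1 CPM in megakaryocyte-like cells. Cd5 and Ly6g had no UMI in erythroid-like cells, which allows up to 0.0288 CPM, and Itgam was at 0.01 CPM. Surface protein was not measured, so how much Ter-119 antigen these cells carried, and which cells the depletion removed, cannot be told from these counts. Erythroid-like cells under 0.5% globin were 29.4% of all erythroid-like cells (28.3 to 30.6%), those at 6% or more 9.07% (8.37 to 9.80%), shares that red cell lysis, the depletion and the sort can each set.

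Of the 9 members, 8 had their highest level among the 9 groups in the erythroid-like cells at 6% globin or more. Cd44 had it in fibroblast-like cells. No share over all genes was computed to set beside this count of 8. With all erythroid-like cells taken as 1 class the count was 6, since Cd47 was at 622 CPM in megakaryocyte-like against 600 CPM in erythroid-like cells and Gypc at 78.5 CPM in LEPR stromal-like against 73.1 CPM in erythroid-like cells. Neither difference exceeded counting error, with a log2 ratio of -0.05 (-0.15 to 0.04) for Cd47. Against LEPR stromal-like cells, 6 members were at least 2-fold higher in erythroid-like cells as a whole and none at least 2-fold lower, beside 19.6% of 12228 genes tested that were higher and 44.4% that were lower by that much. The folds were 22.3 for Rhd, 20.8 for Icam4, 20.7 for Ackr1, 20.1 for Cd24a, 15.9 for Ermap and 14.9 for Slc4a1. With the unnamed cluster that carried all 14 LEPR stromal markers added to the stromal cells, they were 15.8 for Rhd, 14.6 for Icam4, 11.7 for Ackr1, 13.1 for Cd24a, 10.6 for Ermap and 8.98 for Slc4a1. These folds were not computed with cells classed by marker shares alone, where the stromal level of Cd24a was higher still, as given below. For Gypc the intervals were 71.4 to 74.7 CPM in erythroid-like and 70.1 to 87.8 CPM in LEPR stromal-like cells, with a log2 ratio of -0.10 (-0.27 to 0.06) that did not exceed counting error. Cd47 differed by 1.25-fold, at 600 and 478 CPM, and Cd44 by 1.58-fold, at 41.2 and 26.0 CPM. Erythroid-like cells gave 96.6% of all Cd24a UMIs, 96.9% of those of Rhd and of Ackr1, 97.4% of those of Icam4 and 90.2% of those of Cd44, beside 89.9% of the UMIs of all genes.

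Outside the erythroid-like cells the members split in their order. Cd44 stood at 105 CPM (81.2 to 134) in fibroblast-like, 60.0 CPM (48.3 to 73.7) in megakaryocyte-like, 26.0 CPM (21.2 to 31.5) in LEPR stromal-like and 8.56 CPM in endothelial-like cells, where it rested on 2 UMIs. Gypc was higher in LEPR stromal-like than in megakaryocyte-like cells (44.1 CPM, 34.1 to 56.1) and fibroblast-like cells (30.8 CPM, 18.5 to 48.0), whose intervals overlap each other. Cd47 was at 622 CPM (583 to 663) in megakaryocyte-like, 501 CPM (447 to 560) in fibroblast-like, 478 CPM (457 to 500) in LEPR stromal-like and 343 CPM (245 to 466) in endothelial-like cells. The Cd47 intervals of fibroblast-like and LEPR stromal-like cells overlap. Cd24a was at 227 CPM (191 to 268) in fibroblast-like, 166 CPM (146 to 188) in megakaryocyte-like, 81.4 CPM (38.1 to 152) in endothelial-like and 58.3 CPM (51.1 to 66.4) in LEPR stromal-like cells. The matrices gave 56.0 and 60.6 CPM for Cd24a in LEPR stromal-like cells. With the unnamed cluster that carried all 14 LEPR stromal markers added, its level there was 89.4 CPM, and with cells classed by marker shares alone it was 138 CPM. The fibroblast-like value fell to 92.5 CPM when each cell was weighted equally.

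RNA of erythroid genes was present in every class, with Hbb-bs in 94.1% of LEPR stromal-like cells, so each member was also set against it. As a measure of erythroid RNA other than globin, 9 reference genes were summed (Klf1, Alas2, Car1, Hemgn, Tspo2, Trim10, Rhag, Cldn13 and Ctse). For each 1000 UMIs of these genes, Cd24a had 292 UMIs in erythroid-like cells, 260 (224 to 300) in LEPR stromal-like, 282 (232 to 341) in fibroblast-like and 416 (357 to 483) in megakaryocyte-like cells. Between the erythroid groups themselves it ranged from 181 under 0.5% globin to 366 at 6% or more, so the LEPR stromal-like and fibroblast-like values lay inside the erythroid range and the megakaryocyte-like value above it, with an interval that reached into it. Plasma cell-like cells, of which there were 44, also lay above it, at 472. Ermap, at 99.7 in erythroid-like and 112 (89.9 to 138) in LEPR stromal-like cells, Rhd at 110 and 88.2 (69.1 to 111), Icam4 at 27.4 and 23.6 (14.5 to 36.3), Ackr1 at 8.45 and 7.30 (2.81 to 15.5) and Slc4a1 at 87.4 and 105 (84.0 to 130) had intervals in LEPR stromal-like cells that included the erythroid-like value. Gypc was at 18.2 in erythroid-like and 349 (306 to 398) in LEPR stromal-like cells, Cd44 at 10.2 and 116 (93.4 to 142), and Cd47 at 149 and 2128 (1964 to 2307). In the unnamed cluster that carried all 14 LEPR stromal markers the values were nearer, with Gypc at 86.6 (67.7 to 109), Cd44 at 34.3 (23.1 to 49.2) and Cd47 at 630 (566 to 701). There Rhd, at 83.8 (65.2 to 106), lay below and Slc4a1, at 137 (112 to 165), above the erythroid-like value. Cd24a was at 292 (254 to 336) in it, and its interval and those of Ermap, Icam4 and Ackr1 included the erythroid-like value. The plot of members relative to erythroid RNA shows the split into these 2 sets for LEPR stromal-like cells. In megakaryocyte-like cells Rhd, at 80.5 (58.8 to 108), and Slc4a1, at 58.1 (40.1 to 81.7), lay below the erythroid-like value. The megakaryocyte-like intervals of Ermap, Icam4 and Ackr1 included it.

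**Figure D3:**
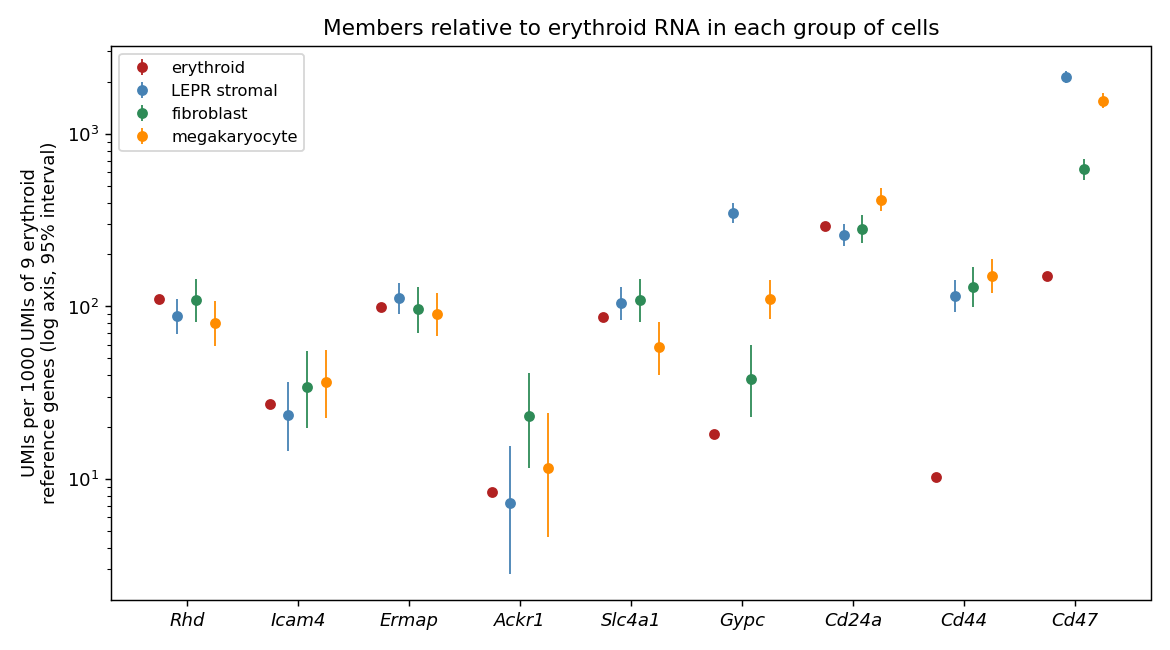
UMIs of each gene for 1000 UMIs of 9 erythroid reference genes (vertical axis, log scale) in erythroid-like (red), LEPR stromal-like (blue), fibroblast-like (green) and megakaryocyte-like (orange) cells, with 95% counting intervals. Gypc, Cd44 and Cd47 stood apart in LEPR stromal-like cells, at 349, 116 and 2128 against 18.2, 10.2 and 149 in erythroid-like cells, while the LEPR stromal-like intervals of the other 6 included the erythroid-like value, which those of Rhd and Slc4a1 in the unnamed LEPR cluster (not plotted) did not.

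LEPR stromal-like cells with a Cd24a UMI (301 cells) were set against those without (817 cells). Ermap was at 43.0 and 17.9 CPM in these cells, 2.40-fold higher (log2 ratio 1.27, 0.67 to 1.86), and Rhd at 34.2 and 14.0 CPM, 2.45-fold higher (1.29, 0.61 to 1.97). Slc4a1 was 1.59-fold higher (0.67, 0.02 to 1.29), while Icam4 (-0.01, -1.67 to 1.43) and Ackr1 (-0.43, -4.53 to 2.39) did not differ beyond counting error. The reference genes were 1.81-fold higher. Gypc, Cd47 and Cd44 did not differ beyond counting error, with folds of 0.99, 1.01 and 1.04. With called doublets left out, the folds were 1.88 for Ermap, 2.05 for Rhd and 1.55 for the reference genes, and the interval of Slc4a1 crossed 0 (-0.15 to 1.28). In 33 fibroblast-like cells with a Cd24a UMI against 76 without, Ermap was 13.3-fold higher (log2 ratio 3.73, 2.28 to 5.67). Rhd was 8.93-fold (3.16, 1.97 to 4.61) and the reference genes were 9.54-fold higher (3.25, 2.85 to 3.68). The Ermap and Rhd folds rested on few fibroblast-like cells. An Ermap UMI was found in 6 of the 33 against 5 of the 76 cells, and 9 against 8 cells had one of Rhd. In the 414 LEPR stromal-like cells with no reference UMI, Cd24a was at 55.1 CPM (43.4 to 68.9), against 47.5 CPM (37.8 to 58.9) in those with 1 or 2 and 86.8 CPM (67.9 to 109) in those with 3 or more. Median depths were 6228.5, 6528 and 7437 UMIs. With the unnamed cluster that carried all 14 LEPR stromal markers added, Cd24a was at 68.5 CPM (57.2 to 81.2), 56.0 CPM (46.8 to 66.5) and 183 CPM (160 to 208) in these 3 groups. The folds between cells with and without a Cd24a UMI were then 4.23 for Ermap, 2.93 for Rhd, 3.19 for Slc4a1 and 2.55 for the reference genes, with called doublets kept. With them left out they were 2.44, 1.83, 1.88 and 1.66. The part of erythroid RNA from other cells in the Cd24a level of LEPR stromal-like cells was not tested.

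The unnamed cluster of 250 globin-rich cells, with a median of 1640 UMIs and 492 genes per cell and 0.423% mitochondrial UMIs, had its own balance of members. Slc4a1 stood at 3566 CPM (3339 to 3804), 4.40-fold above the erythroid-like cells at 6% globin or more (log2 ratio 2.14, 2.04 to 2.24). Ermap, level across the globin groups, was at 1295 CPM (1160 to 1442) here, 2.95-fold higher, and Cd47 at 1239 CPM (1107 to 1383), 1.59-fold higher. Icam4 dropped to 15.5 CPM (4.23 to 39.8) on 8 UMIs over both matrices, a log2 ratio of -3.43 (-5.31 to -2.07). Cd24a, at 1717 CPM (1561 to 1885), Rhd at 585 CPM and Gypc at 140 CPM did not differ from the cells at 6% or more beyond counting error. Cd44, on 7 UMIs, was at 13.6 CPM (3.28 to 36.9). Of the 9 members, 2 were at least 2-fold higher and 1 at least 2-fold lower, beside 13.7% of 6966 genes tested that were at least 2-fold higher and 41.5% at least 2-fold lower.

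**Figure D4:**
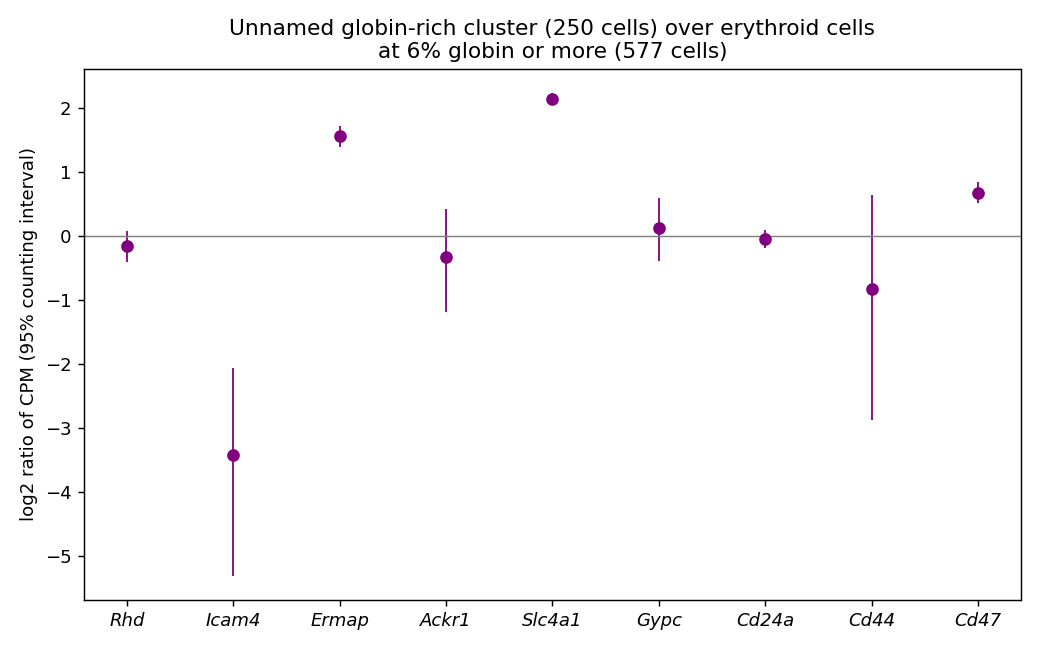
Log2 ratio of CPM (vertical axis) of each gene in the unnamed cluster of 250 globin-rich cells over the 577 erythroid-like cells at 6% globin or more, with 95% counting intervals as bars and a line at 0. Slc4a1 (2.14), Ermap (1.56) and Cd47 (0.67) lay above 0 and Icam4 (-3.43) below it, while the intervals of the other 5 crossed 0.

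Of the membrane skeleton list, 9 of 14 genes in the globin-rich cluster were at least 2-fold above the cells at 6% globin or more and 2 at least 2-fold below, beside 13.7% and 41.5% of all genes tested. Epb41, which encodes protein 4.1, was 21.5-fold higher (log2 ratio 4.43, 4.30 to 4.56) and Epb42, which encodes protein 4.2, 9.54-fold higher (3.25, 3.06 to 3.45). Actb was lower, at -1.62 (-1.84 to -1.40). Of 21 other surface proteins tested, 5 were at least 2-fold higher and 5 lower, among the latter Cd151 on 1 UMI, at a log2 ratio of -1.14 (-11.2 to 2.16). The lists entered here at a lower minimum than the 50 UMIs asked of all genes tested, which Cd151 did not reach. The 5 that were higher were Cd36 (63.9-fold), Art4 (25.2-fold), Kel (6.72-fold), Rhag (3.23-fold) and Tfrc (2.64-fold). Aqp1, the water channel, was lower, at a log2 ratio of -2.17 (-2.78 to -1.63). The cells of this cluster were shallow, with 26.8% of them reaching 2000 UMIs, and their depth and low mitochondrial share moved with these ratios. The part of either was not tested.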

How the data were processed

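Single-cell RNA-seq counts were analysed from 1 pool of Lin-CD45- bone and marrow cells of 3 mice, deposited as 2 matrices labelled replicates 1 and 2. The authors sequenced 10x Chromium 3′ libraries and deposited raw UMI counts for each, already limited to called cells and not normalized. Per the submitters' processing notes, Cell Ranger, the mm10 build, R 4.0.3 and Seurat 4.0 were used, and the header of the deposited counts names software version 3.0.2. No strand or multi-mapping setting is given in the sources used here. Gene positions came from GENCODE M21, which holds 32158 of the 32285 gene identifiers.

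The UMIs of both matrices were summed per barcode. Cells with under 200 genes or over 20% mitochondrial UMIs were left out. The cells were clustered with SCTransform (3000 variable genes less the 4 members among them, 30 components, resolution 0.8) in Seurat 5.3.0 with sctransform 0.4.2 and R 4.3.3. The 17 clusters became 20 when 1 cluster that held fibroblast and endothelial markers was clustered again, a step chosen after seeing the data. Clusters were named by the list with the largest share of detected markers (3 or more, each seen in 10% of the cells or more, with a CPM no lower than 25% of that in its top cluster). No name was given if at least 2 of its 10 leading genes were markers of another list and outnumbered its own, or if its median UMI count was under the overall median divided by 3 with no own marker leading, a rule settled after seeing the data. Of the markers on 16 lists, Ahsp was not analysed here. Scrublet in scanpy 1.11.5 called 186 doublets (1.94%) at an expected rate of 8%, and these were kept in the main values.

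CPM was computed from summed UMIs per group. Intervals are exact Poisson (levels), conditional binomial (ratios) and Clopper-Pearson (shares), on the mean of both matrices because each molecule may be counted in both, with scipy 1.17.1 in Python 3.11.15. A count of 0 allows up to 3 counts. A gene entered a comparison of 2 groups with at least 50 UMIs (mean of both matrices) in both groups together, and ratios over all genes had 0.5 UMI added to each side. Members and list genes entered the comparison of the globin-rich cluster at a lower minimum. No p-value was computed, since there is 1 biological sample. On simulated counts for the comparison of the highest with the lowest globin group (10678 genes), 92.5% of genes changed 2-fold had an interval above 0 and 4.17% of unchanged genes an interval off 0.

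The members and lists were chosen with earlier results of these data known. Genes named are the 9 members, the 5 of each list with the highest erythroid level, and the 3 genes most like each member over 20 bins. Other list members, Lars2, Gm26917 and Hspa1b were named after their values were seen. Alternatives were each matrix alone, stricter cell filters, doublet removal, other resolutions, log-normalization, members kept in the clustering, classes from marker shares, globin left out of totals, per-cell means, thinning and the addition of unnamed clusters. Leaving out the 3 clusters led by Lars2, Gm26917 or Hspa1b, adding the unnamed LEPR cluster and taking all erythroid-like cells as 1 class were chosen after seeing the data. Results for 3 genes that these rules would name are not reported here.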

Additional observations from a re-analysis of the deposited data

How the results depend on the processing

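The number of members higher at 6% globin or more than under 0.5% was 8 of 9, and the number highest in 1 of the erythroid globin groups was 8 of 9, under each of 16 alternatives. With all erythroid-like cells as 1 class the latter was 6. No share over all genes was computed for the latter. Under the 16 alternatives no log2 ratio of a member changed sign, but within the 3 clusters led by Lars2, Gm26917 or Hspa1b alone that of Ermap was -0.47. Cd24a CPM in LEPR stromal cells was 58.3 and moved to 89.3 at resolution 0.4, 85.3 at resolution 1.2, 89.3 with members kept among the variable genes, 138 with classes from marker shares and 89.4 with the unnamed LEPR cluster added, and ranged from 56.0 to 60.6 with 1 replicate matrix left out. The cause was not tested. The Cd24a log2 ratio of 1.45 moved to 1.39 with classes from marker shares, 1.58 with globin UMIs left out of the total, 1.61 with each cell weighted equally and 1.56 when thinned to 2000 UMIs, cause likewise not tested, and ranged from 1.44 to 1.45 by matrix. Over all alternatives the log2 ratio ranged from 3.55 to 5.17 for Slc4a1, 1.2 to 2.04 for Icam4, 1.17 to 1.92 for Rhd, 0.72 to 1.15 for Cd47, 0.15 to 0.40 for Ermap and -1.22 to -1.07 for Cd44. Of 1278 recomputed levels, 1074 stayed within the counting interval. No paired analysis was possible because the matrices hold the same cells and there is 1 group.

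With 1 pool, the spread between mice cannot be measured. Levels under about 10 CPM in the endothelial-like class rest on 1 or 2 UMIs, and a class of 51 cells allows up to 25.7 CPM for a gene with no UMI. Fewer cells of a stage and less RNA per cell cannot be told apart in the shares of cells.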
